A study of Rattus norvegicus with 18 samples.

Results

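The let-7 family guide strands are the 9 mature microRNAs (miRNAs) of the table that are named rno-let-7 with the suffix -5p, together with rno-miR-98-5p. They were chosen by name, and they are 9 of 753 miRNAs listed. The libraries are small RNA from the dorsal root ganglia (DRG) of 18 adult Lister hooded rats. These ganglia hold the cell bodies of sensory neurons. The ganglia of cervical levels 6 to 8 were pooled within each rat, so each of the 18 libraries is 1 rat, with 6 rats per group. Naive rats had no operation and no vector. The bPYX+GFP rats had both corticospinal tracts cut at the medullary pyramids (bilateral pyramidotomy, bPYX) and then an injection of AAV1-CMV-EGFP into the forelimb flexors of 1 side, and their ganglia were taken from that side 10 weeks after injury. The bPYX+NT3 rats had the same injury and injection, with AAV1-CMV-NT3, which encodes human neurotrophin-3. Every injured rat therefore also carried a vector, and bPYX+GFP vs naive compares injury and vector together with neither. The CMV promoter is not restricted to 1 cell type, and the vector was given to muscle and not to the ganglia.

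let-7 miRNAs are short RNAs that guide an Argonaute protein to messenger RNAs and lower their translation and stability. Target choice rests mainly on the seed, a short run of bases near the 5′ end. The family is known for its rise as cells leave the stem cell state, for its block by the RNA-binding protein LIN28, and in neurons for holding back axon regrowth after nerve injury. Each hairpin precursor gives a guide strand, which is usually kept, and a passenger strand, which is usually lost.

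The mature sequences show what the members share and where they part, which bears on how reads can be told apart. They are RefSeq sequences from assembly GRCr8, 5′ to 3′, all 22 bases long, with the seed (bases 2 to 8) in capitals.
rno-let-7a-5p: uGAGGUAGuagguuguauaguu
rno-let-7b-5p: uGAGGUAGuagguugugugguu
rno-let-7c-5p: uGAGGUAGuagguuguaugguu
rno-let-7d-5p: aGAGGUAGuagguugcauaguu
rno-let-7e-5p: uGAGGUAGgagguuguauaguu
rno-let-7f-5p: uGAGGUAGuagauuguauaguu
rno-let-7g-5p: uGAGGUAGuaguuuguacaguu
rno-let-7i-5p: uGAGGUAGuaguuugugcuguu
rno-miR-98-5p: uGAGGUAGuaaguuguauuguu

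All 9 members had the same seed, and no other mature rat miRNA in the RefSeq table had it. The members were identical at 14 of 22 positions. Counted from 1 at the 5′ end and with let-7a-5p as reference, let-7c-5p differed by A19G alone, let-7e-5p by U9G alone and let-7f-5p by G12A alone. let-7b-5p had A17G and A19G, and let-7d-5p had U1A and U16C. miR-98-5p, the member with another family name, had G11A and A19U. let-7g-5p had G12U and U18C, and let-7i-5p had these together with A17G and A19U. Of the 36 pairs of members, 4 differed at 1 base, and the most distant pair, let-7d-5p and let-7i-5p, differed at 6.

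Reads given to miRNAs numbered 3.88 to 6.92 M per library (M is the prefix mega), and the 9 members took 6.99% to 8.46% of them. Levels are given as counts per M after trimmed mean of M-values (TMM) scaling of library sizes (CPM). Since the members are equally long, their CPM values need no correction for length. The members fell into 2 ranges. let-7i-5p, let-7g-5p, let-7b-5p, let-7c-5p and miR-98-5p had over 1000 counts in every library, with 4049 as the lowest count. let-7f-5p, let-7a-5p, let-7d-5p and let-7e-5p had at most 342.

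rno-let-7i-5p was the highest member, with 33402 CPM in the lowest library, a median of 39953 and 49989 in the highest, and it was 7th of 753 by mean CPM. rno-let-7g-5p followed with 19529 to 25643 CPM and a median of 22493. rno-let-7b-5p lay between 9644 and 12008 CPM with a median of 10912. These 3 members did not overlap in level over the 18 libraries, and let-7i-5p and let-7g-5p together held 78.0% to 83.9% of all counts of the family. rno-let-7c-5p ranged from 2283 to 3033 CPM (median 2593), and rno-miR-98-5p from 934 to 1367 CPM (median 1065). Every library kept the same order of these 5 members, from let-7i-5p down to miR-98-5p, with no overlap between neighbours.

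The 4 low members stood far below. rno-let-7f-5p had 30.9 to 54.3 CPM (142 to 342 counts), rno-let-7a-5p 30.2 to 43.9 CPM (124 to 212 counts) and rno-let-7d-5p 10.4 to 32.1 CPM (42 to 175 counts). let-7f-5p exceeded let-7a-5p in 14 of 18 libraries, and their ranges overlapped. The ranges of let-7a-5p and let-7d-5p overlapped too, although let-7a-5p was higher in each of the 18 libraries. rno-let-7e-5p had 0 counts in all 18 libraries, so it could not be tested, and 8 of the 9 members passed the detection filter of more than 10 counts in at least 6 libraries.

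**Figure D1:**
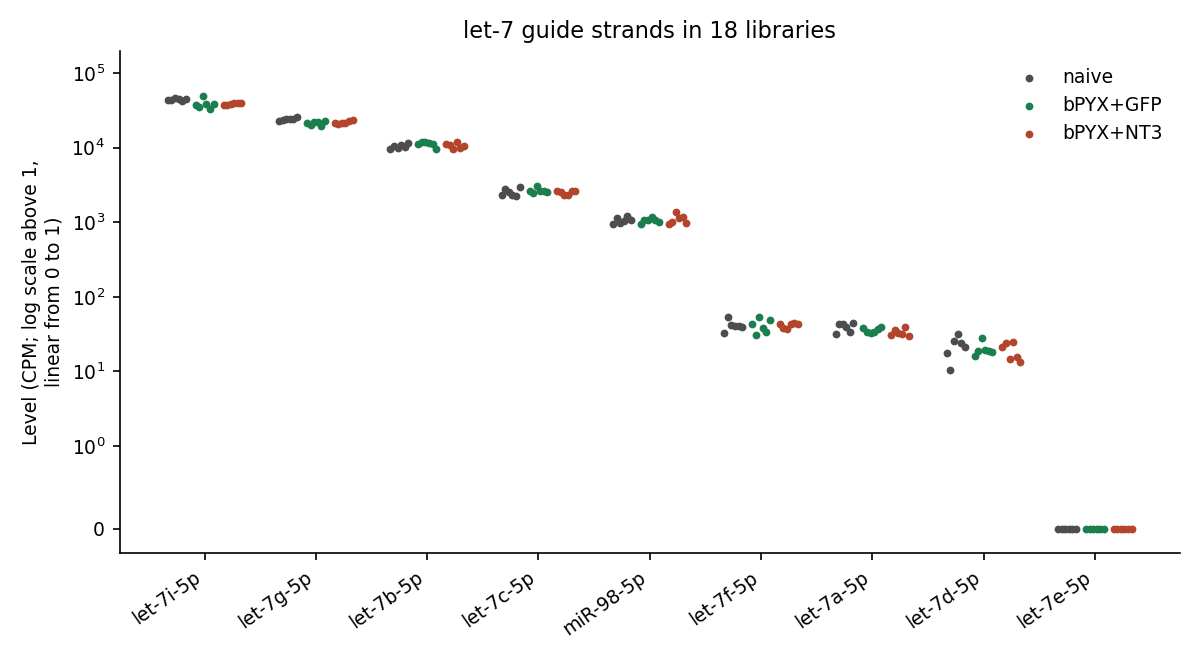
Level of each let-7 guide strand in CPM (vertical axis, log scale above 1) in each of 18 libraries (points), coloured by group. Of the 9 members, 5 lie at 934 CPM or more in every library, 3 lie between 10.4 and 54.3 CPM, and let-7e-5p is at 0.

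Whether these low values reflect low abundance was not tested. In the RefSeq annotation of GRCr8, the 4 low members are the 4 whose sequence lies opposite another annotated mature miRNA on the other DNA strand. let-7a-5p is opposite miR-3596a, let-7d-5p opposite miR-3596b, let-7e-5p opposite miR-3596c and let-7f-5p opposite miR-3596d, with 22, 20, 21 and 20 shared positions. let-7a-5p and let-7f-5p come from 2 genes each, of which 1 has such an opposite miRNA. miR-3596a, miR-3596b, miR-3596c and miR-3596d are rows of the count table too, and each had 0 counts in every library. None of the 5 high members has an opposite mature miRNA.

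The same split ran through the rest of the table. Of 753 listed miRNAs, 688 matched the RefSeq table by name, and 94 of these lay opposite another mature miRNA by at least 1 base. Besides the 4 members, 90 such miRNAs were listed. Of these 90, 81 had 0 counts in every library and 3 passed the detection filter, with 117 as the highest count in any library. The miRNAs at 0 included miR-183-5p, a marker of sensory neurons, and miR-338-3p, a marker of myelinating glia. miR-125b-5p, one of the miRNAs that share transcripts with let-7, had 67 to 117 counts. With the let-7 members included, 344 of 594 matched miRNAs with no opposite miRNA (57.9%) passed the filter, against 6 of 94 (6.38%).

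A read that overlaps 2 features is set aside as ambiguous by the counting program, and if counting ignores strand, a read and its opposite cannot be told apart. The strand setting is not given in the sources used here. Ambiguous reads numbered 324161 to 661241 per library, which is 98.3% to 139% of all reads counted for the 9 members. They were 2.61% to 3.26% of all entries in naive, 3.22% to 3.58% in bPYX+GFP and 3.10% to 3.72% in bPYX+NT3 libraries. Whether let-7 reads were among them was not tested. A second limit may touch let-7a-5p, let-7c-5p and let-7f-5p, each of which has 2 genes with 1 identical mature sequence. A read that fits several places gets a low alignment quality, and 28.0% to 35.1% of all entries were left out for low quality. Whether reads of these 3 members were among them was not tested. let-7b-5p, let-7g-5p, let-7i-5p and miR-98-5p have 1 gene and no opposite miRNA.

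**Figure D2:**
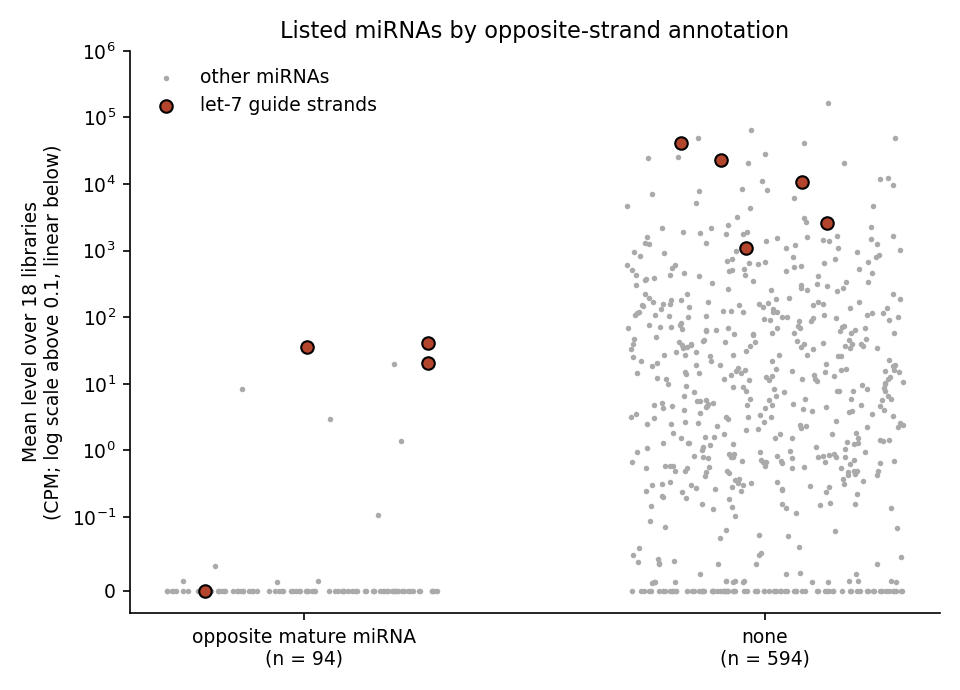
Mean level over 18 libraries in CPM (log scale above 0.1) of 688 listed miRNAs, split by whether an annotated mature miRNA lies on the opposite strand. The 4 let-7 guide strands on the left (large points) have mean levels of 0 to 41.5 CPM, and the 5 on the right have 1076 CPM or more.

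Passenger strands gave a second view of the same precursors. For let-7b, let-7g, let-7i and miR-98 the guide held at least 99.4% of the counts of both strands in every library. The median number of guide counts per passenger count was 214 for let-7b, 346 for let-7i, 1231 for miR-98 and 3750 for let-7g. For let-7c, with both passengers summed, the guide held 97.1% to 98.2%. let-7f (71.6% to 85.7%) and let-7a (51.7% to 70.3%) had much lower guide shares. In let-7d the order was turned over, with 0.68% to 2.26% of the counts on let-7d-5p and the rest on let-7d-3p. let-7e-3p was detected at 25.8 CPM or more in every library, while let-7e-5p had no count. The 4 lowest guide shares were those of the 4 members with an opposite miRNA. The part of counting and of strand choice in these shares was not tested.

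**Figure D3:**
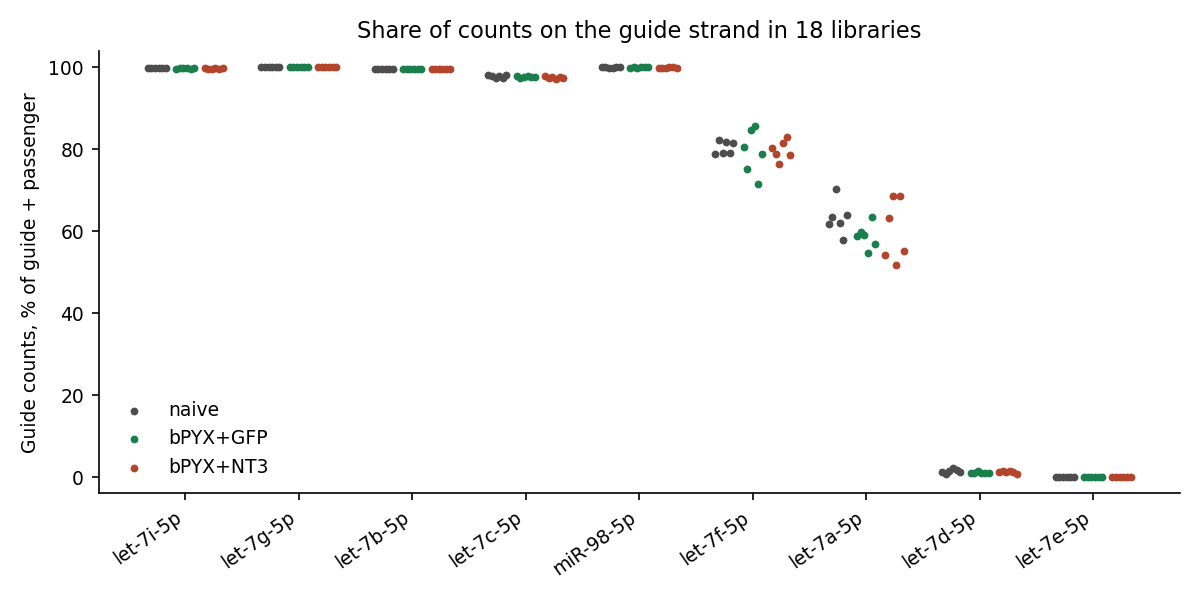
Guide counts as a percentage of guide and passenger counts (vertical axis) for each let-7 precursor or pair of precursors in 18 libraries (points, coloured by group). let-7i, let-7g, let-7b, let-7c and miR-98 lie at 97.1% or more, let-7f and let-7a lie between 51.7% and 85.7%, and let-7d and let-7e lie at 2.26% or less.

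The comparison of bPYX+GFP with naive asked what differed in DRG after corticospinal injury. Of the 8 members tested, 2 were called at an unadjusted p under 0.05, both lower, where 21.2% of all 373 miRNAs tested were called (40 higher and 39 lower). A count of 2 in 8 is close to that background. The called members were let-7g-5p and let-7i-5p, which had the most counts of the 9. let-7g-5p had 23151 to 25643 CPM (median 24055) in naive and 19529 to 23056 CPM (median 21848) in bPYX+GFP rats. All 6 bPYX+GFP libraries lay below the lowest naive library, so the groups did not overlap. The fitted log2 fold change was -0.17 ± 0.06 (SE; edgeR quasi-likelihood test, unadjusted p = 0.0136, adjusted p = 0.134), a level 10.9% lower.

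let-7i-5p had 42986 to 46501 CPM (median 44059) in naive and 33402 to 49989 CPM (median 37740) in bPYX+GFP rats. Of the bPYX+GFP libraries, 5 lay below every naive library and replicate 3, the library with the most reads, lay above all of them at 49989 CPM. The log2 fold change was -0.19 ± 0.09 (SE; edgeR unadjusted p = 0.0417, adjusted p = 0.232), or 12.3% lower. Without bPYX+GFP replicate 3 it was -0.27 (edgeR unadjusted p = 0.000473, adjusted p = 0.026). With any 1 of the other 11 libraries left out the unadjusted p was 0.0505 to 0.0941.

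No other member had an unadjusted p under 0.05. let-7b-5p, which comes from a single gene, had 9644 to 11458 CPM in naive and 9671 to 12008 CPM in bPYX+GFP rats. Its medians were 10388 and 11462, and 5 of 6 bPYX+GFP libraries were above the naive mean, but the groups overlapped (log2 fold change 0.11, 95% interval -0.04 to 0.25; edgeR unadjusted p = 0.133). Without bPYX+GFP replicate 6, the low library, it was 0.15 (edgeR unadjusted p = 0.0334). let-7c-5p had a log2 fold change of 0.06 (95% interval -0.11 to 0.23; 0.026 to 0.11 with 1 library left out), and miR-98-5p one of -0.02 (95% interval -0.18 to 0.13). The intervals were wider for the members with few counts, at -0.35 to 0.09 for let-7a-5p, -0.58 to 0.32 for let-7d-5p and -0.31 to 0.31 for let-7f-5p.

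No member had an adjusted p under 0.05 with edgeR's quasi-likelihood test, its likelihood ratio test or DESeq2, while 9 of 373 miRNAs (2.41%) had one with the first, 12 with the likelihood ratio test and 23 with DESeq2. Groups without overlap were found for 1 member and for 4.02% of all miRNAs. The median log2 fold change of the 8 members was -0.07, and that of all 373 miRNAs was 0.00. The summed level of the 9 members, most of it let-7i-5p and let-7g-5p, was 79925 to 85937 CPM in naive and 67812 to 88213 CPM in bPYX+GFP rats, with medians of 82338 and 74300. In bulk tissue, fewer cells of a type and less RNA per cell cannot be told apart.

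Of 3 marker miRNAs of sensory neurons, miR-183-5p was at 0 in every library, as described above, and the sum of the others, miR-182 and miR-96-5p, was 23640 to 31007 CPM in naive and 28964 to 33099 CPM in bPYX+GFP rats, ranges that overlap. At an unadjusted p under 0.05, 1 of the 2 tested was higher in bPYX+GFP and none was lower. Of the smooth muscle pair, 1 of 2 was lower, and their sum was 41686 to 68813 CPM in naive and 44506 to 59397 CPM in bPYX+GFP rats. In bPYX+NT3 vs bPYX+GFP, 1 of this pair was called higher, where 8.58% of all miRNAs were called, and no other marker was called. The sum of the pair was 41024 to 59027 CPM in bPYX+NT3 rats. The lists for red blood cells (3 of 4 miRNAs in the table), white blood cells (4 of 4), skeletal muscle (4 of 4, of which 2 were at 0) and endothelium (2 of 2, of which 1 was at 0) had no call. Those at 0, miR-1-3p, miR-133a-3p and miR-126a-5p, also lie opposite another mature miRNA. Only 2 skeletal muscle miRNAs and 1 endothelial miRNA were therefore tested. Of the glial pair, miR-338-3p was at 0, and the sum of both was at most 1.53 CPM, so these 2 miRNAs could not serve as a check for glia. The part of these markers in the let-7 result was not tested.

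**Figure D4:**
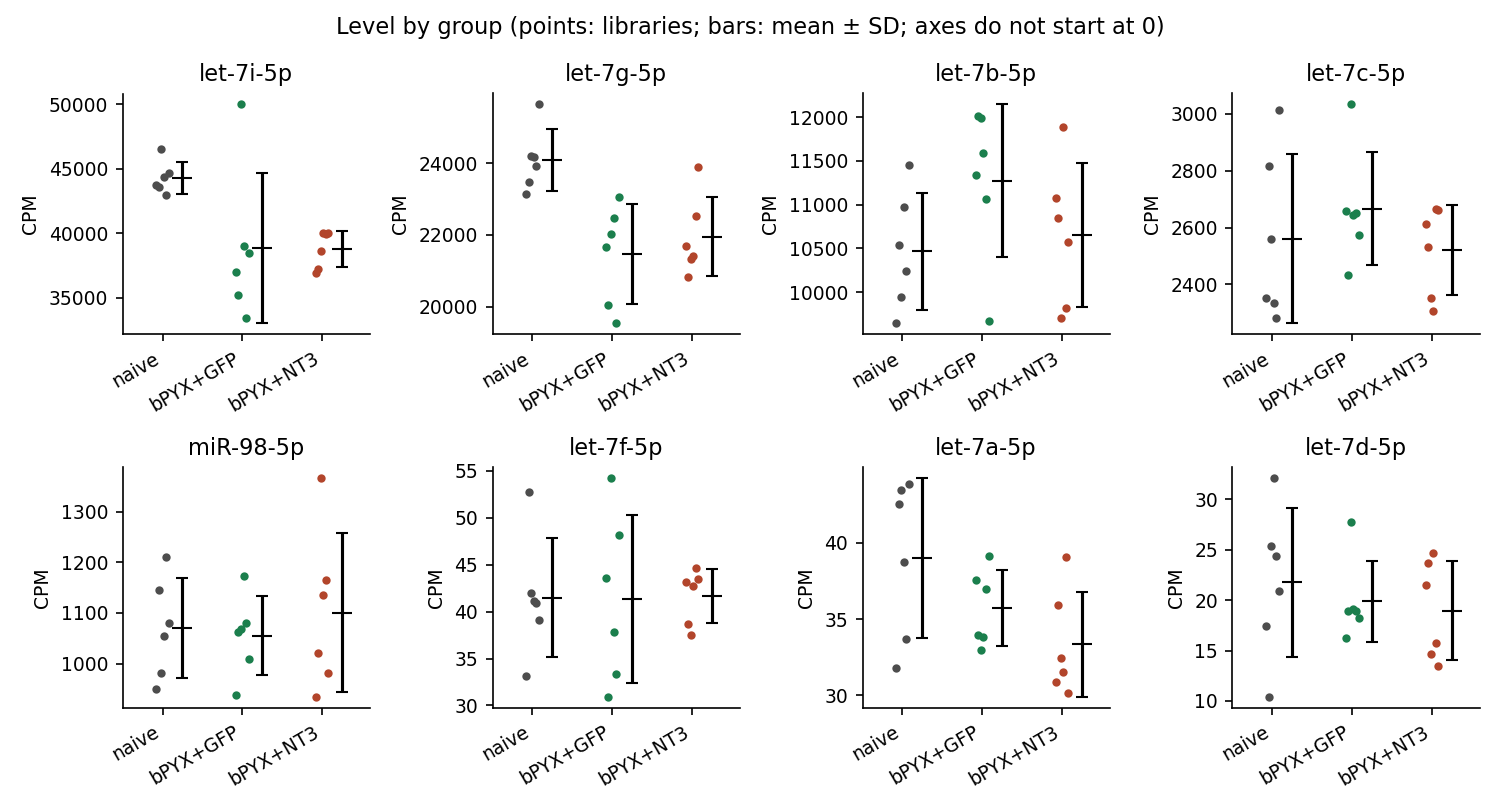
CPM of the 8 tested let-7 guide strands in each library (points) by group, with the mean and SD of 6 rats (bars); each panel has its own axis, which does not start at 0. For let-7g-5p all bPYX+GFP points lie below the naive points, and for let-7i-5p 1 bPYX+GFP library at 49989 CPM lies above all naive points.

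bPYX+NT3 vs bPYX+GFP asked what neurotrophin-3 changed in injured rats. By the quasi-likelihood test of edgeR, 0 of 8 members had an unadjusted p under 0.05, where 8.58% of all miRNAs did, and 0 had an adjusted p under 0.05, as for all miRNAs (0%, with 32 under an unadjusted 0.05). The edgeR likelihood ratio test and the DESeq2 Wald test also called 0 members by either threshold. Of all 373 miRNAs they called 30 and 33 by unadjusted p, and 0 by adjusted p. The 2 groups overlapped for every member, as for all 373 miRNAs (0% without overlap). The unadjusted p ran from 0.281 for let-7c-5p to 0.868 for let-7i-5p, and the adjusted p from 0.737 to 0.962.

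let-7i-5p had 36956 to 40013 CPM (median 39260) in bPYX+NT3 rats. These values lay inside the range of the bPYX+GFP rats, and the log2 fold change was 0.01 (95% interval -0.15 to 0.18). let-7g-5p had 20840 to 23901 CPM (median 21556) and a log2 fold change of 0.04 (95% interval -0.08 to 0.16; 0.013 to 0.053 with 1 library left out). let-7b-5p had 9707 to 11886 CPM (median 10714) and a log2 fold change of -0.07 (95% interval -0.23 to 0.09; -0.13 to -0.037 with 1 library left out). For let-7c-5p, at 2305 to 2665 CPM (median 2572), all 6 bPYX+NT3 libraries were below the bPYX+GFP mean of 2666 CPM, but the ranges overlapped (log2 fold change -0.07, 95% interval -0.20 to 0.06; -0.043 without bPYX+GFP replicate 3). miR-98-5p had 934 to 1367 CPM (median 1079) and a log2 fold change of 0.08 (95% interval -0.14 to 0.30). Over all 8 members the interval bounds lay between -0.44 and 0.30, both set by let-7d-5p. The median of the members was -0.03, beside 0.00 for all miRNAs.

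In bPYX+NT3 vs naive, let-7i-5p and let-7g-5p were again the members with an unadjusted p under 0.05, both lower. This comparison uses the same naive libraries as bPYX+GFP vs naive, so the 2 are not independent. With TMM scaling, let-7i-5p was below the lowest naive library in all 6 bPYX+NT3 rats, at 36956 to 40013 CPM against 42986 to 46501 CPM. This separation rests on the scaling, since the groups overlapped in the share of all miRNA counts. bPYX+NT3 replicate 3 had 182143 let-7i-5p counts of 4150224, a larger share than naive replicate 2 with 176025 of 4124323. The log2 fold change of let-7i-5p was -0.19 ± 0.06 (SE; edgeR unadjusted p = 0.00535, adjusted p = 0.191), or 12.4% lower. It kept an unadjusted p under 0.05 whichever 1 of the 12 libraries was left out (0.00732 to 0.0367), and of the other settings only scaling by library size alone took it past 0.05 (log2 fold change -0.13, unadjusted p = 0.0523).

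let-7g-5p was below the naive mean in all 6 bPYX+NT3 rats, with ranges that overlapped at 1 end, 20840 to 23901 CPM against 23151 to 25643 CPM. The log2 fold change was -0.13 ± 0.06 (SE; edgeR unadjusted p = 0.0458, adjusted p = 0.349), or 8.92% lower. Its unadjusted p was 0.05001 to 0.165 when any 1 library other than bPYX+NT3 replicate 6 was left out. It was also above 0.05 in 8 of the 10 other settings (0.0643 to 0.318, the highest with library size only, where the log2 fold change was -0.069), and under it with DESeq2 (0.0203) and with all 3 groups fitted together (0.034). let-7a-5p, on 124 to 212 counts, had a log2 fold change of -0.23 (95% interval -0.46 to 0.01; edgeR unadjusted p = 0.0618). Without naive replicate 1 its unadjusted p was 0.0225, and without bPYX+NT3 replicate 5 it was 0.0306. The other 5 members had log2 fold changes between -0.21 for let-7d-5p and 0.04 for miR-98-5p, with intervals on both sides of 0. That of let-7d-5p ran from -0.35 (without naive replicate 2) to -0.068 with 1 library left out.

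Against naive, 2 of the 8 members were called in bPYX+NT3 at an unadjusted p under 0.05, where 13.7% of all miRNAs were. No member and none of the 373 miRNAs (0%) had an adjusted p under 0.05 with the quasi-likelihood test, while 51 miRNAs had an unadjusted p under 0.05. The likelihood ratio test and DESeq2 each gave 1 miRNA with an adjusted p under 0.05, in neither case a member. With TMM scaling, groups without overlap were found for 1 member and for 1.34% of all miRNAs. The median log2 fold change of the members was -0.08, beside -0.01 for all miRNAs. The summed level of the 9 members was 72575 to 78223 CPM in bPYX+NT3 rats, below the naive range of 79925 to 85937 CPM. This separation rests on the scaling: as a share of all miRNA counts the members took 7.85% to 8.46% in naive and 6.99% to 8.35% in bPYX+NT3, ranges that overlap, and the log2 fold change was -0.14 with TMM scaling and -0.072 with library size only. The sum of miR-182 and miR-96-5p was 25916 to 32954 CPM in bPYX+NT3 rats, and 1 of these 2 was called higher than in naive.

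**Figure D5:**
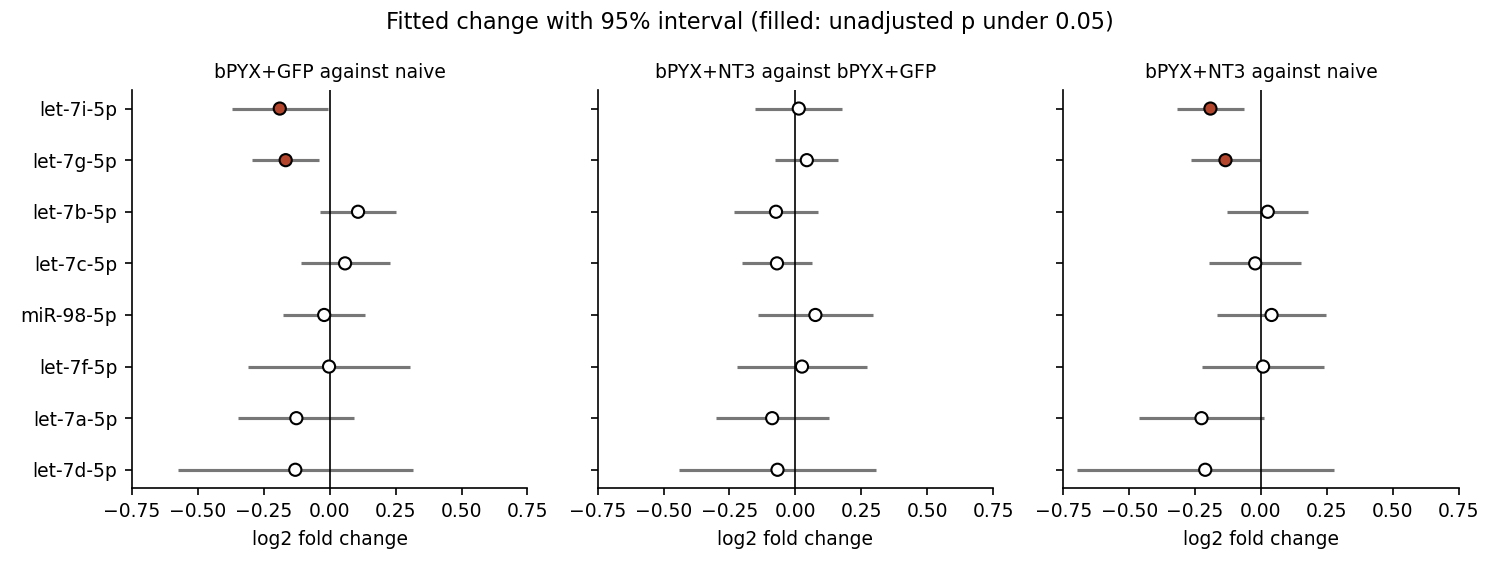
Fitted log2 fold change (points) and 95% interval (lines) of the 8 tested let-7 guide strands in the 3 comparisons; filled points have an unadjusted p under 0.05. let-7i-5p and let-7g-5p are filled on the left and right, where both lie between -0.19 and -0.13, and no point is filled for bPYX+NT3 against bPYX+GFP.

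let-7i-5p and let-7g-5p also varied together across rats. Their log2 CPM had a Pearson correlation of 0.73 over the 18 libraries, which includes the difference between groups, and this was the highest of the 28 pairs of tested members. The median correlation over the 28 pairs was 0.04, beside 0.01 over all pairs of tested miRNAs. let-7i-5p and let-7g-5p share G12U and U18C, which no other member has, a feature noted after their levels were seen. Each comes from a gene with no other miRNA gene within 10000 bases on its strand, whereas every gene of the other members has at least 1 such neighbour. The miRNAs outside the family whose levels were most like its summed level were miR-125b-2-3p (Pearson r = 0.81), miR-152-3p (0.77), miR-361-3p (0.75), miR-148b-5p (0.69) and miR-300-3p (0.69), all over the same 18 libraries. These correlations are descriptions of libraries that share their scaling.

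The passenger strands were listed as 12 rows, of which 10 were tested. In bPYX+GFP vs naive, 2 of 10 were called at an unadjusted p under 0.05, both higher, which is close to the 21.2% of all miRNAs. let-7b-3p had a log2 fold change of 0.22 ± 0.08 (SE; edgeR unadjusted p = 0.0135, adjusted p = 0.134) and let-7d-3p one of 0.27 ± 0.08 (edgeR unadjusted p = 0.00419, adjusted p = 0.0806). Between the injured groups 2 of 10 were called, where 8.58% of all miRNAs were. There let-7d-3p was lower in bPYX+NT3 (-0.29 ± 0.09; edgeR unadjusted p = 0.00733, adjusted p = 0.217) and let-7g-3p higher (0.60 ± 0.24; edgeR unadjusted p = 0.0232, adjusted p = 0.433). The study lists let-7b-3p as changed after injury and normalized by neurotrophin-3. Here let-7b-3p was not called between the injured groups (-0.15, 95% interval -0.37 to 0.07, edgeR unadjusted p = 0.167). Against naive, let-7d-3p in bPYX+NT3 had -0.03 (95% interval -0.27 to 0.22), and the 2 calls of let-7d-3p share the bPYX+GFP libraries. Against naive, 2 of 10 were called in bPYX+NT3, where 13.7% of all miRNAs were. These rats had more let-7g-3p (0.39 ± 0.18; edgeR unadjusted p = 0.045, adjusted p = 0.349) and let-7i-3p (0.38 ± 0.15; edgeR unadjusted p = 0.0247, adjusted p = 0.319) than naive rats, while their guides were lower. let-7g-3p was low in level, at 2.39 to 5.17 CPM in the lowest library of each group. The median log2 fold change of the 10 passengers was 0.13, 0.00 and 0.03 in the 3 comparisons.

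Several let-7 genes lie on shared transcripts with miR-99, miR-100 and miR-125 family members, which have other seeds. Of 5 such partners, all of which were tested, miR-125a-5p, the neighbour of let-7e, was higher in bPYX+GFP than in naive (log2 fold change 0.29 ± 0.07; edgeR unadjusted p = 0.00107, adjusted p = 0.0443). It was the only partner called in any of the 3 comparisons, and 1 in 5 is close to the 21.2% of all miRNAs called at an unadjusted p under 0.05 in this one (2.41% by adjusted p). miR-99b-5p, from the same transcript, had a log2 fold change of 0.02 (95% interval -0.15 to 0.19) there. miR-99a-5p, the neighbour of 1 let-7c gene, had log2 fold changes of -0.07 and, in bPYX+NT3 vs naive, -0.24 (95% interval -0.47 to 0.00; edgeR unadjusted p = 0.0505). miR-100-5p, the neighbour of 1 let-7a gene, had -0.06 and -0.10 in the same comparisons. The median of the 5 partners was -0.06 in bPYX+GFP vs naive, -0.09 in bPYX+NT3 vs bPYX+GFP and -0.10 in bPYX+NT3 vs naive.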

How the data were processed

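For each rat, RNA of the pooled ganglia was made into a small RNA library with a NEBNext kit, with no molecular identifiers stated. The authors aligned trimmed reads with Bowtie2 to Rnor_5.0 and counted them with HTSeq. The deposited values are unnormalized counts of reads, 1 row per mature miRNA. The strand setting, annotation release and versions of aligner and counter are not given in the sources used here. The table ends in 5 HTSeq totals, such as ambiguous reads, which entered neither library sizes nor tests.

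Each comparison was fitted on its 12 libraries with edgeR 4.0.16 in R 4.3.3 (TMM scaling, quasi-likelihood F test) over all 373 miRNAs with more than 10 counts in at least 6 libraries, with Benjamini-Hochberg adjustment over all of them. The study used unadjusted p under 0.05, and both values are given. The SE was taken from the F statistic, and intervals are at the 95% level. Naive replicate 1, which the study left out, was kept. Named miRNAs were all members, the called passengers and partners, and the 5 miRNAs most like the summed level. Passengers set beside a guide and the marker miRNAs were named too. The other partners and the opposite-strand miRNAs were named after their values were seen. The members and lists were chosen with earlier results of these data known. Opposite-strand miRNAs and neighbours within 10000 bases were read from RefSeq GRCr8. The counts rest on another build, so no positions are given. Alternatives were other scalings, filters and tests (among them DESeq2 1.42.0), a replicate block and each library left out. The tests were tested on simulated data, but no result of that is given here and no statement above rests on it. PCR copies are not independent molecules.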

Additional observations from a re-analysis of the deposited data

Results flagged for a closer look

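The highest and lowest library of each group were compared with the others for the 8 tested members and their summed level, 27 groups of 6 libraries in all. In 2 of them 1 library stood apart, where 1.35 would be expected by chance at 1 in 20. Both were bPYX+GFP replicate 3, which had the most miRNA reads (6919863). Its let-7i-5p level was 49989 CPM, with the next at 39016 CPM and the lowest at 33402 CPM. Its let-7d-5p level was 27.8 CPM, with the next at 19.2 CPM and the lowest at 16.3 CPM. The part of sequencing depth in these values was not tested.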

How the results depend on the processing

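Of 237 fold changes of members refitted under settings other than leaving out a library, 218 kept their direction and their side of an unadjusted p of 0.05. With 1 library left out, 237 of 288 kept both. Of the rest, 26 turned sign, 22 passed above 0.05 and 3 fell below it. The number of members called in bPYX+GFP vs naive was 1 with DESeq2 (let-7g-5p) and 2 with every other setting tried. There 61 to 79 of 373 miRNAs were called (73 with DESeq2). With no filter on counts it was 84 of 562, and with the filter at 100 counts 67 of 251. In bPYX+NT3 vs naive the number of members called was 1 (let-7i-5p) with median-of-ratios scaling, TMM factors without the members or no filter on counts. It was also 1 (let-7i-5p) with a filter at 100 counts, the likelihood ratio test, a robust prior or the replicate block. It was 0 with library size only and 3 with all 3 groups fitted together (let-7a-5p added). Of all miRNAs, 42 to 75 were called (54 with library size only and 58 with all 3 groups). Here too the number tested changed with the filter. Between the injured groups the number of members called stayed 0, also with any 1 library left out. There 24 to 54 of 373 miRNAs were called, 54 of 562 with no filter and 26 of 251 with the filter at 100 counts. Leaving out 1 library gave 1 to 2 members in bPYX+GFP vs naive, where 53 to 78 of all 373 miRNAs were then called. Without naive replicate 1, which the study left out, the members were let-7g-5p in bPYX+GFP vs naive and let-7a-5p and let-7i-5p in bPYX+NT3 vs naive. There 68 and 51 of all 373 miRNAs were called. With TMM factors without the members, let-7g-5p had an edgeR adjusted p of 0.0481 in bPYX+GFP vs naive, and the miRNAs with an adjusted p under 0.05 rose from 9 to 21 of 373. The log2 fold change of the summed level in bPYX+NT3 vs naive was -0.14, but -0.072 with library size only and -0.085 per M of all entries. The causes were not tested.

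Small fold changes turned sign. In bPYX+GFP vs naive, let-7f-5p was at 0.01 with median-of-ratios scaling, library size only or DESeq2 (0.0089, 0.012 and 0.0112), and miR-98-5p at 0.0027 with library size only. Between the injured groups, let-7i-5p was at -0.0057 with no filter and -0.0024 with all 3 groups. In bPYX+NT3 vs naive, let-7c-5p was at 0.045 with library size only and 0.014 with the filter at 100 counts. With 1 library left out, ranges that crossed 0 were, in bPYX+GFP vs naive, let-7d-5p -0.27 to 0.014, let-7f-5p -0.089 to 0.077 and miR-98-5p -0.054 to 0.022. Between the injured groups they were let-7d-5p -0.16 to 0.039, let-7f-5p -0.038 to 0.11, let-7i-5p -0.033 to 0.083 and miR-98-5p -0.026 to 0.13. For bPYX+NT3 against naive they were let-7c-5p -0.047 to 0.047, let-7f-5p -0.048 to 0.087 and miR-98-5p -0.031 to 0.13.

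Replicate numbers did not pair the rats: deviations of same-numbered libraries correlated at -0.24 to 0.33, -0.15 to 0.18 and -0.41 to 0.39 in the 3 comparisons, and 1, 2 and 2 of 6 libraries correlated best with their own number. The replicate block gave 2 members called in bPYX+GFP vs naive, 0 in bPYX+NT3 vs bPYX+GFP and 1 in bPYX+NT3 vs naive. Of all 373 miRNAs it called 76, 39 and 48 in these comparisons. Counts of 42 to 342 per library limit what let-7a-5p, let-7d-5p and let-7f-5p can show.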
